A study of Mus musculus with 18 samples.

Results

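Cxcl9, Cxcl10, Cxcl11, Cxcr3 and Ccl5 are 5 of the 41079 genes in the expression table, chosen by name as chemokines and a receptor that draw T cells into tissue. Their levels were followed over 18 B16F10 melanomas, 3 in each of 6 groups. B16F10 is a pigmented mouse melanoma line, and the tumors grew under the right flank skin of C57BL/6 females. The PBS group received buffer. Free PS473 received PS473, a Pistol ribozyme (a small self-cleaving type of RNA redesigned to cut the messenger RNA of PD-L1), with no carrier, and PS473@CPs received it with cationic polymers. NKMOF-101-[Mn], the empty framework, was a manganese metal-organic framework without RNA, and in M5@NKMOF-101-[Mn], the M5 framework, it carried M5, a ribozyme without catalytic activity. PS473@NKMOF-101-[Mn], the loaded framework, carried the active one. Injections into the tumor began on day 6, when tumors measured about 50 mm3, and were repeated every 2 days, and tumors were collected 48 h after the last one. All groups thus share the implanted line, the host strain and the injection schedule. Tumors with the loaded framework carry another framework number in their titles and were placed by their treatment description. Each tumor was sequenced as a whole, so fewer cells of a type and less RNA per cell cannot be told apart.

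CXCL9, CXCL10 and CXCL11 are small secreted chemokines that bind the receptor CXCR3, which is carried by activated T cells and NK cells. Interferon gamma induces all of these ligands, and CXCL10 also answers to type I interferon and to NF-kB. In tumors, CXCL9 comes mainly from macrophages and dendritic cells, whereas CXCL10 is made by many cell types, tumor cells included. CCL5 acts on CC chemokine receptors and is made by T and NK cells as well as by myeloid and tumor cells. The C57BL/6 strain is known for lacking a functional CXCL11 protein.

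The 3 ligand genes lie side by side on mouse chromosome 5 (GRCm38, GENCODE annotation, all on the minus strand). Cxcl9 spans chr5:92321347-92328079, Cxcl10 chr5:92346638-92348889 and Cxcl11 chr5:92359544-92365485, so that the cluster covers 44.1 kb. Cxcr3 lies at chrX:101731535-101734269 and Ccl5 at chr11:83525778-83530518, also on the minus strand. Cxcl10 shares exon bases with Art3, and Cxcl11 with Gm2673. Art3 was read at 8.67 to 21.2 FPKM. FPKM, the unit of all levels here, is a count of sequenced fragments scaled by gene length and by all fragments that the tumor's genes received. The library kit did not mark strand, so fragments from such shared bases cannot be assigned to 1 gene with certainty.

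Promoter sequences, 250 bases before to 50 bases after the start of transcription, were at hand for 3 of the 5 genes (RefSeq, GRCm38.p6). They were searched on both strands for an interferon-stimulated response element (GAAANNGAAA), a gamma-activated site (TTCNNNGAA) and the NF-kB motif, which 3.44%, 8.30% and 8.46% of 32851 mouse promoters of that length hold. The Cxcl10 promoter held the first and the last of them. The Cxcl9 and Cxcr3 promoters held none of these letters in this window. Cxcl9 and Cxcl10 are shown because their levels moved together over the tumors. Capitals mark the matches. The interferon element begins 213 bases before the start site and the NF-kB matches 159, 104 and 103 bases before it, the last of these overlapping each other.
Cxcl10, chr5:92348840-92349139, minus strand: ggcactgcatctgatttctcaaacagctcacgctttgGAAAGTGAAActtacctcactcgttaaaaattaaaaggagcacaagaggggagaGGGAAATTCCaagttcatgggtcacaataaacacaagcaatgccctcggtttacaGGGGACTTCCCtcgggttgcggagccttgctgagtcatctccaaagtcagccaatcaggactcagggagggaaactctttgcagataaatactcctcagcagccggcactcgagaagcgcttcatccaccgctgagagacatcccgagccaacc
Cxcl9, chr5:92328030-92328329, minus strand: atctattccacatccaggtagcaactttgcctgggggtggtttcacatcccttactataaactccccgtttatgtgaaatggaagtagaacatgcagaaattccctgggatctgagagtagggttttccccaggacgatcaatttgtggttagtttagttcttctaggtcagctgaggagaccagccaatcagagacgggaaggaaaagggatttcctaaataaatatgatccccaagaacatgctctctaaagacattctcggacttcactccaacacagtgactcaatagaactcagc

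Cxcl11 is annotated as a pseudogene in the C57BL/6J reference: a polymorphic pseudogene in GENCODE and a transcribed pseudogene in RefSeq. Its first coding exon is shown because the reference holds 2 bases there, in capitals, that the GENCODE coding model leaves out (chr5:92363177-92363178).
Cxcl11, chr5:92363155-92363214, minus strand: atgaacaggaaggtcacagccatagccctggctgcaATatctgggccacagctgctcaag
Read without a gap, the frame met a TGA stop after 36 codons. With these 2 bases left out, it ran for 99 codons, close to the 98 codons of Cxcl10. The longest frames of the other members were 126 codons for Cxcl9, 91 for Ccl5 and 367 for Cxcr3. The Cxcl11 values below are therefore levels of a transcript and say nothing of a protein.

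The recovered depth was 17212000 to 28401000 fragments per tumor. Of the lineage lists fixed for the comparison, melanoma genes were high in every tumor: Dct, an enzyme of pigment synthesis, lay between 2087 and 3416 FPKM. T cell genes were low: Cd3e, a subunit of the T cell receptor complex, lay between 0.0544 and 1.19 FPKM. Skin keratinocyte genes varied most: Krt14, the basal keratin, was listed at 0 FPKM in 5 tumors and reached 2058 FPKM in PBS tumor 2.

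Among the ligands Cxcl10 was by far the most abundant, with a mean of 171 FPKM over the 18 tumors, the 284th highest mean in the table. Cxcl9 followed with 8.49 FPKM and Cxcl11 with 0.549 FPKM. In each tumor Cxcl10 stood 11.8 to 69.1 times above Cxcl9 per length. Ccl5 had a mean of 14.0 FPKM and Cxcr3 one of 3.31 FPKM. The spread over tumors differed between the genes: the highest tumor was 13.0 times the lowest for Cxcl9, 13.3 times for Cxcl11, 10.5 times for Ccl5, 3.12 times for Cxcl10 and 2.32 times for Cxcr3. For every member the SD within groups exceeded the SD of the group means. Means of 3 tumors are expected to spread less than single tumors even where groups do not differ, so this order alone does not measure group differences. On the log2(FPKM + 1) scale the SD of the 6 group means was 0.48 for Cxcl9, against a pooled SD of 0.83 within groups. The corresponding values were 0.30 and 0.38 for Cxcl10, 0.15 and 0.27 for Cxcl11, 0.13 and 0.29 for Cxcr3, and 0.44 and 0.73 for Ccl5.

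**Figure D1:**
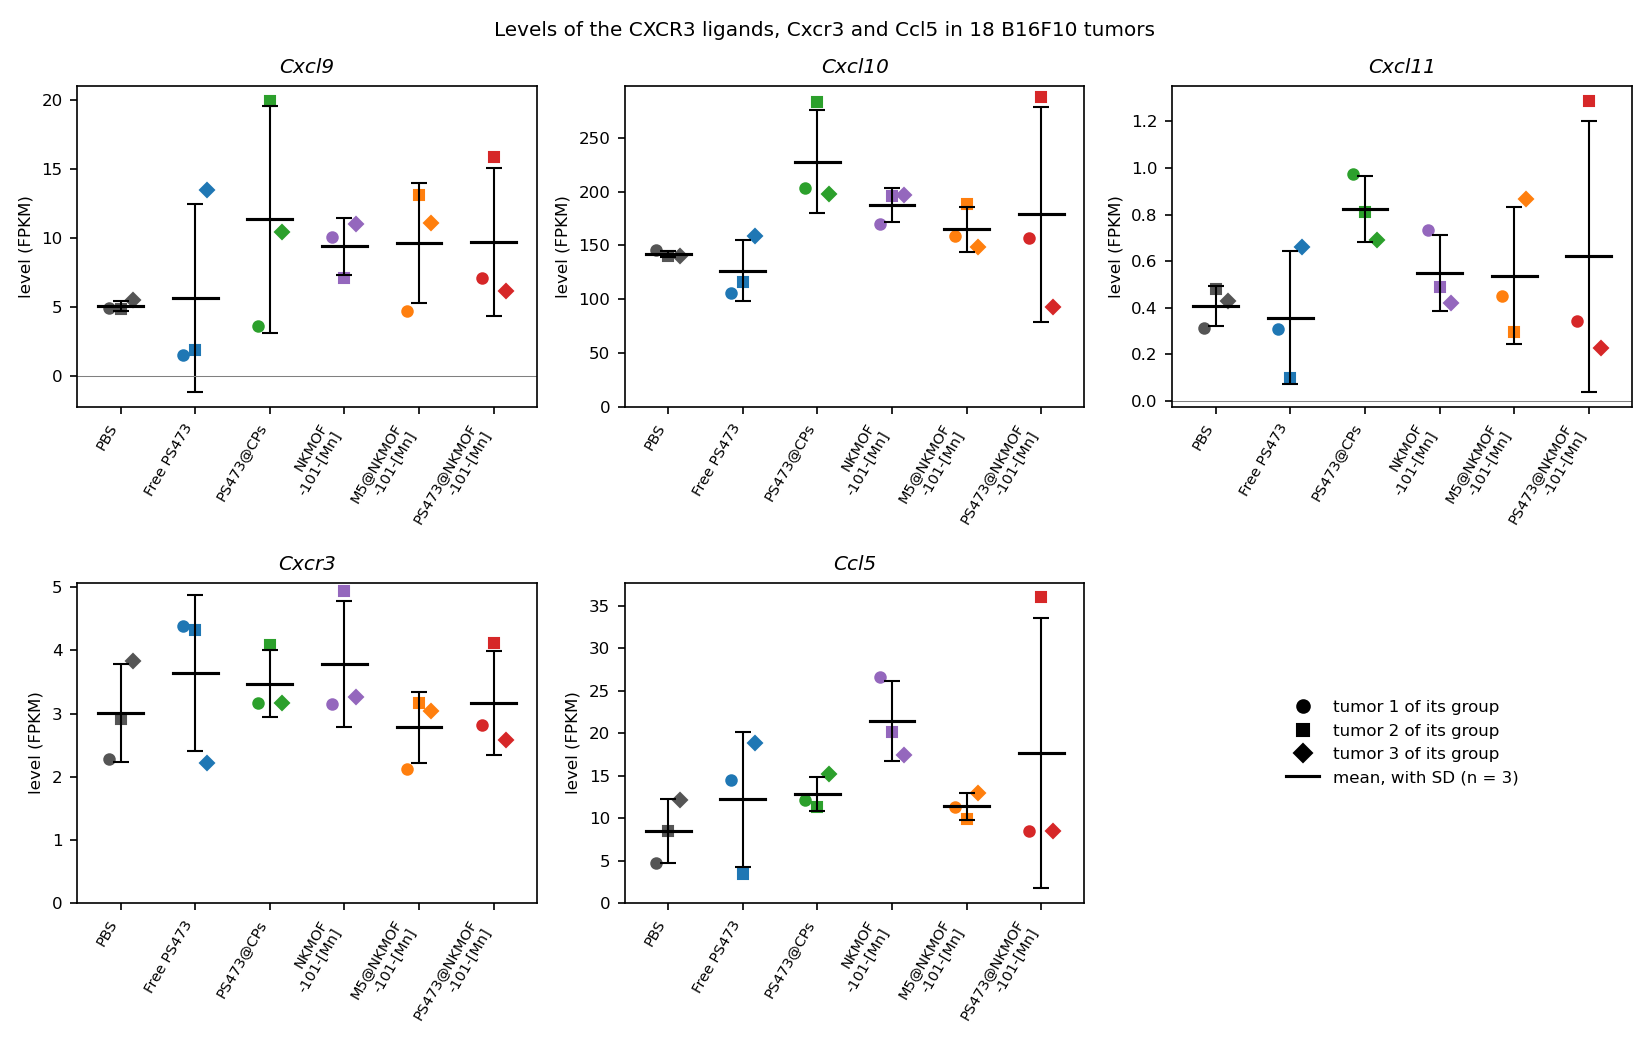
Level of each gene in FPKM (vertical axis, from 0) in the 18 tumors, by group; each symbol is 1 tumor and the lines give the mean with the SD (n = 3). PS473@NKMOF-101-[Mn] tumor 2 (red square) lay highest of its group for all 5 genes, and the PBS tumors lay close together for Cxcl9 and Cxcl10.

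Cxcl9, the ligand tied most closely to interferon gamma, was measured at 4.98, 4.85 and 5.51 FPKM in the PBS tumors. The Free PS473 tumors held 1.53, 1.94 and 13.5 FPKM, the PS473@CPs tumors 3.64, 19.96 and 10.5 FPKM, and the NKMOF-101-[Mn] tumors 10.1, 7.11 and 11.1 FPKM. The M5@NKMOF-101-[Mn] tumors held 4.76, 13.2 and 11.1 FPKM and the PS473@NKMOF-101-[Mn] tumors 7.13, 15.9 and 6.21 FPKM. PBS was thus the tightest group, with a coefficient of variation of 6.80%, and Free PS473 was the widest, with its tumors 1 and 2 the lowest of all 18 and its tumor 3 ranked 3. All tumors with the empty or the loaded framework lay above all PBS tumors. The groups ranked PS473@CPs, empty framework, loaded framework, M5 framework, PBS and Free PS473 by mean log2 level, and every group overlapped the next one in this order. The 4 groups at the top differed by less than 0.05 between neighbours on that scale.

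Cxcl10, the ligand that also answers to type I interferon, was at 145, 140 and 140 FPKM in PBS. It was at 106, 116 and 159 FPKM in Free PS473, at 203, 283 and 198 FPKM in PS473@CPs and at 170, 196 and 197 FPKM in NKMOF-101-[Mn]. It was at 158, 189 and 149 FPKM in M5@NKMOF-101-[Mn] and at 157, 288 and 92.3 FPKM in PS473@NKMOF-101-[Mn]. The last group held both the highest and the lowest tumor of the series, and its mean of 179 FPKM carried an SD of 99.7 (n = 3). In PBS the coefficient of variation was 2.17%. The tumors of PS473@CPs, the empty framework and the M5 framework all lay above those of PBS. PS473@CPs, first in the order with 228 ± 48.1 FPKM (SD, n = 3), lay next to NKMOF-101-[Mn], which came second with 188 ± 15.6 FPKM, the lowest tumor of the one and the highest of the other being nearly level at 197.6 and 197.1 FPKM; the M5 framework, the loaded framework, PBS and Free PS473 followed, each overlapping its neighbour.

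Cxcl11 was near the limit of what this depth can count. It rested on 4 to 43.5 fragments per tumor (the values of this gene fell on steps of 0.5 fragments), and its mean lay under the 1 FPKM asked of the genes tested. PBS tumors stood at 0.311, 0.479 and 0.429 FPKM and Free PS473 tumors at 0.310, 0.0972 and 0.663 FPKM. PS473@CPs tumors stood at 0.973, 0.813 and 0.691 FPKM and NKMOF-101-[Mn] tumors at 0.733, 0.490 and 0.421 FPKM. M5@NKMOF-101-[Mn] tumors stood at 0.452, 0.294 and 0.865 FPKM and PS473@NKMOF-101-[Mn] tumors at 0.343, 1.29 and 0.229 FPKM. Only the PS473@CPs tumors all lay above PBS, at 31.5, 32 and 31.5 fragments against 10, 15 and 13.5, with libraries of 20167000 to 28401000 fragments against 19504000 to 20023000. By mean log2 level the order was PS473@CPs, loaded framework, empty framework, M5 framework, PBS and Free PS473, with overlap between all neighbours.

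Cxcr3, the receptor, varied least. PBS tumors held 2.28, 2.92 and 3.83 FPKM, Free PS473 tumors 4.39, 4.32 and 2.22 FPKM, and PS473@CPs tumors 3.17, 4.09 and 3.16 FPKM. NKMOF-101-[Mn] tumors held 3.15, 4.93 and 3.27 FPKM, M5@NKMOF-101-[Mn] tumors 2.13, 3.17 and 3.04 FPKM, and PS473@NKMOF-101-[Mn] tumors 2.81, 4.11 and 2.58 FPKM. No group was free of overlap with PBS, and each group overlapped its neighbour in the order empty framework, Free PS473, PS473@CPs, loaded framework, PBS and M5 framework. The gene rested on 59 to 178.5 fragments per tumor. Per length it stood 3.47 to 79.5 times above Cd3e and 1.33 to 20.1 times above Cd3g, another subunit of the T cell receptor complex. Free PS473 tumors 1 and 2 held Cxcr3 levels ranked 2 and 3 of the 18, at 142 and 178.5 fragments, while their Cd3e levels were 0.149 and 0.0544 FPKM and their Cd8a levels, a marker of cytotoxic T cells, were the lowest of the 18 tumors at 0.0795 and 0.0996 FPKM.

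Ccl5, whose protein does not act through CXCR3, was at 4.69, 8.51 and 12.2 FPKM in PBS and at 14.4, 3.44 and 18.8 FPKM in Free PS473. The PS473@CPs tumors held 12.1, 11.3 and 15.2 FPKM, and the NKMOF-101-[Mn] tumors 26.7, 20.2 and 17.5 FPKM. In M5@NKMOF-101-[Mn] it was at 11.3, 9.86 and 13.0 FPKM, and in PS473@NKMOF-101-[Mn] at 8.49, 36.0 and 8.46 FPKM. The empty framework was the group with the highest mean, 21.4 ± 4.75 FPKM (SD, n = 3), and the only one whose tumors all lay above PBS (8.46 ± 3.75 FPKM). Tumor 2 of PS473@NKMOF-101-[Mn] held the highest value of the series, while its 2 companions lay at the level of the middle PBS tumor. The order was empty framework, loaded framework, PS473@CPs, M5 framework, Free PS473 and PBS, and all neighbours overlapped.

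The study asked whether the loaded framework changes the tumor's immune state, and the first comparison set PS473@NKMOF-101-[Mn] against PBS. None of the 5 genes passed the test in it. The mean log2(FPKM + 1) was higher by 0.74 for Ccl5 (SE 0.54), by 0.71 for Cxcl9 (SE 0.62), by 0.18 for Cxcl10 (SE 0.29), by 0.15 for Cxcl11 (SE 0.21) and by 0.06 for Cxcr3 (SE 0.22). The limma adjusted p was 0.993 for each tested member. Under this rule (adjusted p under 0.05) 0% of the 12357 tested genes were called, here and in each of the comparisons that follow, and 2.10% had an unadjusted p under 0.05. Cxcl9 was the only member without overlap, as were 2.74% of the tested genes in that direction. One tumor carried much of these differences: without PS473@NKMOF-101-[Mn] tumor 2, the value became -0.24 for Cxcl10, -0.13 for Cxcl11 and -0.10 for Cxcr3, and went down to 0.33 for Cxcl9 and 0.08 for Ccl5. In that tumor Ifng, the gene of interferon gamma, was at 1.38 FPKM against 0.0809 to 1.20 FPKM elsewhere, and Gzmb, a cytotoxic granule protease, was at 6.81 FPKM, both the highest of the series.

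**Figure D2:**
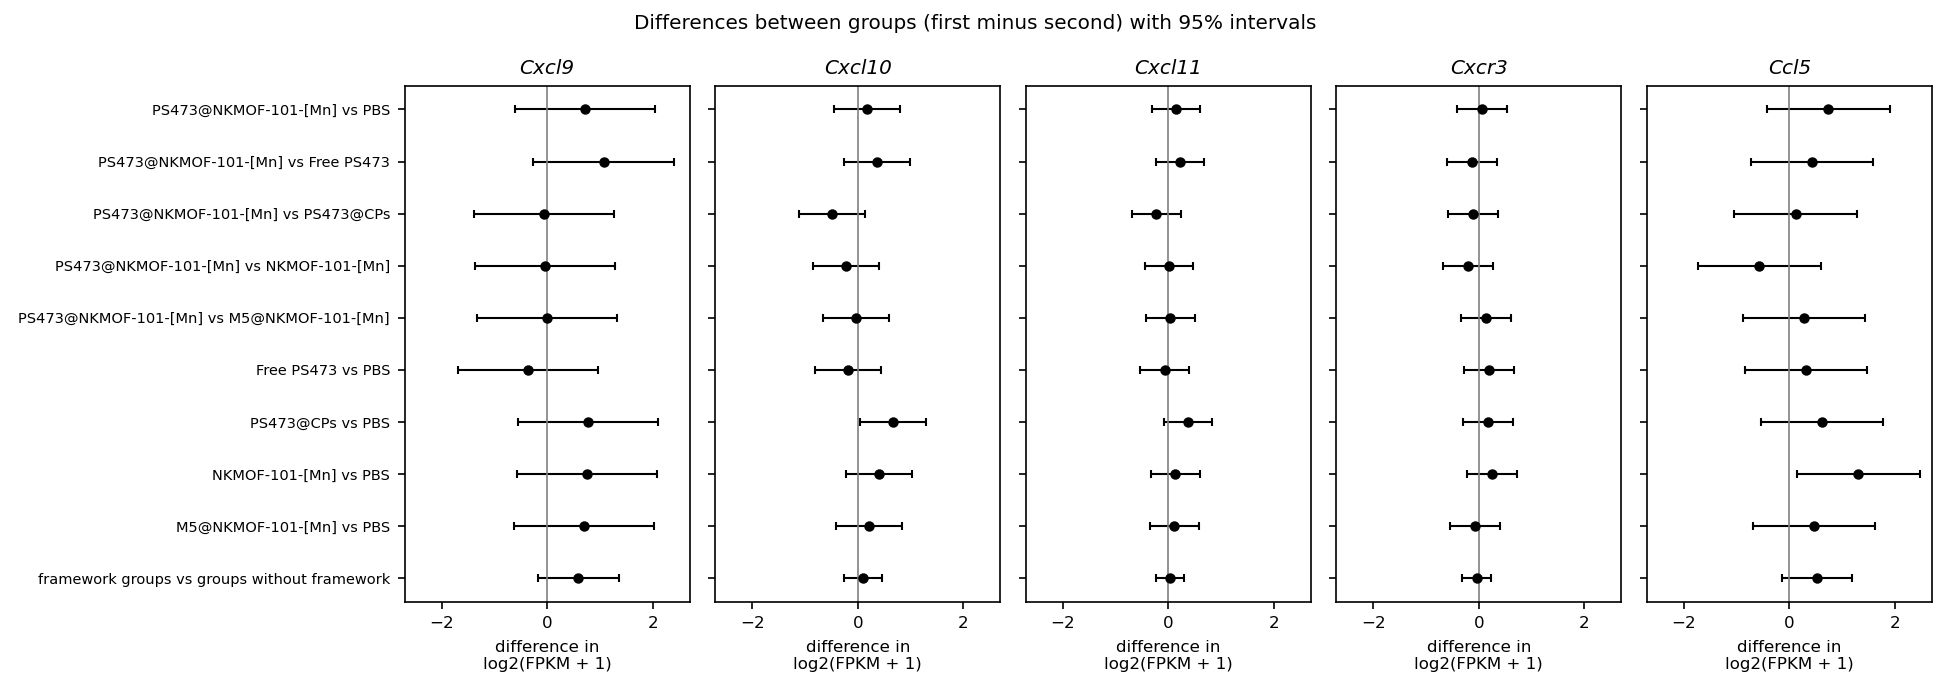
Difference in mean log2(FPKM + 1), first group minus second, for each gene and comparison; points are limma estimates and bars their 95% intervals. Most bars cross 0, and the exceptions are Cxcl10 in PS473@CPs against PBS and Ccl5 in NKMOF-101-[Mn] against PBS, neither of which kept an adjusted p under 0.05.

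The remaining comparisons of the loaded framework asked what its parts contribute. Against M5@NKMOF-101-[Mn], which differs in the catalytic activity of the ribozyme, the difference was 0.00 for Cxcl9 with a 95% interval from -1.32 to 1.33. For Cxcl10 it was -0.03 (-0.65 to 0.59), for Cxcl11 0.04 (-0.42 to 0.50), for Cxcr3 0.14 (-0.34 to 0.61) and for Ccl5 0.28 (-0.88 to 1.43). For Cxcl9 this interval runs from 0.400-fold to 2.51-fold, so differences within that range remain possible, and 0.591% of tested genes had an unadjusted p under 0.05. Against the empty framework the differences were -0.04 for Cxcl9, -0.22 for Cxcl10, 0.01 for Cxcl11, -0.20 for Cxcr3 and -0.57 for Ccl5, with intervals that all included 0, where 2.30% of genes had such a p. Without tumor 2 of the loaded framework the Ccl5 value was -1.22. Against Free PS473 they were 1.07 for Cxcl9 (-0.26 to 2.39), 0.37 for Cxcl10, 0.22 for Cxcl11, -0.13 for Cxcr3 and 0.43 for Ccl5, against a share of 4.98%, and the Cxcl9 value ran from 0.61 to 1.87 with single tumors left out, the ends being without Free PS473 tumors 1 and 3. Against PS473@CPs they were -0.06 for Cxcl9, -0.48 for Cxcl10 (-1.10 to 0.14), -0.23 for Cxcl11, -0.11 for Cxcr3 and 0.12 for Ccl5, against a share of 2.29%. Without tumor 2 of the loaded framework the Cxcl10 value was -0.90 and that of Ccl5 -0.54, and without its tumor 3 the Cxcl10 value was -0.082. None of the members was below an unadjusted p of 0.05 in these 4 comparisons. Cxcl10 was the member for which the loaded framework lay below the polymer carrier by the widest margin, and its PS473@CPs tumors all exceeded tumors 1 and 3 of PS473@NKMOF-101-[Mn] but not tumor 2.

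Each other treatment was set against PBS to ask what that treatment alone does. These comparisons share the PBS tumors, so their values are not independent of each other. In PS473@CPs the mean log2 level of Cxcl10 was higher by 0.66 (SE 0.29, 95% interval 0.04 to 1.28), a 1.58-fold difference. Its unadjusted limma p was 0.0391, a limit that 2.09% of genes passed, and the adjusted p was 1. Both Cxcl10 and Cxcl11 had no overlap with PBS there, as did 1.93% of the tested genes in that direction (Cxcl11 was not among the genes tested). Cxcl9 differed by 0.76, Ccl5 by 0.62, Cxcl11 by 0.38 and Cxcr3 by 0.17, each with an interval that included 0.

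In NKMOF-101-[Mn] the mean log2 level of Ccl5 was higher by 1.31 (SE 0.54, 95% interval 0.15 to 2.46), or 2.47-fold, with an unadjusted limma p of 0.0294 and an adjusted p of 1; 1.46% of genes passed the unadjusted limit. Cxcl9, Cxcl10 and Ccl5 each had all NKMOF-101-[Mn] tumors above PBS, which held for 4.52% of the tested genes. Cxcl9 differed by 0.75 and Cxcl10 by 0.40. Macrophage markers moved the same way in these tumors: 11 of 11 tested had a positive difference, as had 58.8% of all tested genes. Their median was 0.82 against 0.03 over all genes. At an unadjusted limma p under 0.05, 2 of the 11 were higher, as were 142 of the 12357 tested genes. Other lists also moved this way. Positive differences were found for 5 of 5 tested leukocyte genes (median 0.61) and 5 of 6 T and NK cell genes (0.38). So it was for 4 of 5 endothelial genes (0.30), 5 of 7 fibroblast genes (0.30) and 2 of 3 dendritic cell genes. Most were negative for skin epithelium (14 of 15), melanoma (5 of 9) and neutrophil genes (2 of 2). The part of these lists in the chemokine values was not tested. In M5@NKMOF-101-[Mn] Cxcl10 had no overlap with PBS, as had 4.75% of genes, but its difference was 0.21, and Cxcl9 (0.70), Ccl5 (0.46), Cxcl11 (0.11) and Cxcr3 (-0.08) overlapped it, with 1.51% of genes at an unadjusted p under 0.05. In Free PS473 the differences were -0.36 for Cxcl9, -0.18 for Cxcl10, -0.07 for Cxcl11, 0.19 for Cxcr3 and 0.31 for Ccl5, where 1.81% of genes had such a p.

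The 3 groups with framework were then pooled and set against the 3 without, 9 tumors against 9. Cxcl9 was higher by 0.58 (SE 0.36, 95% interval -0.18 to 1.35) and Ccl5 by 0.53 (SE 0.31, -0.14 to 1.19), with a limma adjusted p of 0.900 for both. Cxcl10 differed by 0.10, Cxcl11 by 0.03 and Cxcr3 by -0.04. Without tumor 2 of the loaded framework the values were 0.46 for Cxcl9, 0.31 for Ccl5, -0.035 for Cxcl10 and -0.062 for Cxcl11. Over all tumors the intervals of Cxcl10, Cxcl11 and Cxcr3 ended at 0.46, 0.30 and 0.23 on the log2 scale. This bounds an increase in FPKM + 1, at the 95% level, at 1.38-fold, 1.23-fold and 1.17-fold. The added 1 compresses low levels, so the bounds on FPKM itself are wider, most for Cxcl11 and also for Cxcr3. In this comparison 4.56% of genes had an unadjusted p under 0.05. The F test over the 6 groups gave an unadjusted p of 0.129 for Cxcl10, 0.304 for Ccl5, 0.349 for Cxcl9 and 0.659 for Cxcr3, and 0.442 for Cxcl11 in the fit without a filter, and it called 0% of genes after adjustment. The F test left 246 genes, and the comparisons above 73 to 615, at an unadjusted p under 0.05, and limma's voom on the recovered fragments also called 0 genes in each of them.

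The inputs and targets of interferon signalling give these values a frame. Of 24 tested interferon targets other than the members, 17 were higher in the framework groups at an unadjusted p under 0.05, against 2.93% of all genes in that direction, and none passed after adjustment. Their median difference was 0.61, against -0.01 over all genes. The groups without framework were not alike: in Free PS473 against PBS the 24 targets all had a negative difference, with a median of -0.75 and 5 past the unadjusted limit. Over all tested genes 59.5% had a positive difference there, and 68 of 12357 were lower at that limit. Against the same PBS tumors the median of the targets was 0.17 for the empty framework and 0.52 for the M5 framework, each with 0 of 24 past that limit, and 0.28 for PS473@CPs. Between the framework groups and the others, Igtp and Irgm1, GTPases that interferon gamma induces, differed by 0.88 (SE 0.28) and 0.73 (SE 0.21). There Cxcl9 (0.58) was near the median of the targets (0.61) and Cxcl10 (0.10) well under it. Against PBS both lay above the target median in PS473@CPs (0.76 and 0.66), the empty framework (0.75 and 0.40) and Free PS473 (-0.36 and -0.18). In the M5 framework Cxcl9 lay above it at 0.70 and Cxcl10 below it at 0.21. In PS473@NKMOF-101-[Mn] against PBS, 4 of the 24 targets were higher at the unadjusted limit, against 1.00% of genes. The median of the 24 was 0.61, above the 0.18 of Cxcl10 and under the 0.71 of Cxcl9. Tumor 2 weighed on the targets as on the members. The mean log2 level of the target list was 4.06, 5.19 and 3.64 in tumors 1, 2 and 3 of the loaded framework. In the PBS tumors it was 4.06, 3.57 and 3.62. Differences of the targets without tumor 2 are not given here. Of 20 tested genes of interferon receptors, kinases and factors, 5 were higher in the framework groups at the unadjusted limit and 0 lower. Of 10 tested NF-kB pathway genes, 0 were past it in either direction, and their median was 0.01. Ifng itself was at 0.0809 to 1.38 FPKM, under the limit for testing.

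Of the 10 tested genes of related ligands, receptors and binding partners, 0 passed after adjustment in the framework groups. Sdc1, a heparan sulfate carrier, differed by -0.55 (SE 0.25). Ccl3 and Ccl4, related CC chemokines, differed by 0.29 (SE 0.32) and 0.17 (SE 0.30). Ccr1 (0.944 FPKM on average) was too low to test, and Ccr3 was listed at 0 in 5 tumors. Dpp4, a protease that trims these chemokines, had a mean under that limit as well.

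The ligands and Ccl5 moved together over the 18 tumors, and no such relation was seen for Cxcr3. Pearson's r between log2 levels was 0.73 for Cxcl10 with Cxcl11 (Spearman's rho 0.69, permutation p = 0.00055), 0.71 for Cxcl11 with Ccl5 (rho 0.63, permutation p = 0.00096) and 0.70 for Cxcl9 with Cxcl10 (rho 0.61, permutation p = 0.0013). After Benjamini-Hochberg adjustment over the 10 pairs of members, the p was 0.00433 for each of these 3 pairs. Cxcl9 with Cxcl11 (r = 0.56), Cxcl10 with Ccl5 (r = 0.53) and Cxcl9 with Ccl5 (r = 0.52) had adjusted permutation p values of 0.0384, 0.0424 and 0.0424. The pairs with Cxcr3 ranged from -0.10 with Cxcl9 to 0.23 with Cxcl10, with adjusted permutation p values of 0.481 to 0.761. The 6 relations rested in part on the tumors at the ends: without the 2 tumors farthest from the median of the first gene, 0 of 10 pairs had an adjusted p under 0.05, r being 0.58 for Cxcl10 with Cxcl11, 0.66 for Cxcl11 with Ccl5 and 0.58 for Cxcl9 with Cxcl10. The tumors so left out were PS473@CPs 2 and PS473@NKMOF-101-[Mn] 2 for Cxcl10, PS473@CPs 1 and PS473@NKMOF-101-[Mn] 2 for Cxcl11, and Free PS473 1 and 2 for Cxcl9. In deviations from the group means, Cxcl11 with Ccl5 kept r = 0.83 (exact permutation within groups, adjusted p = 0.0174), and Cxcl9 with Cxcl10 gave r = 0.63 (adjusted p = 0.0633 by the same exact permutation). No tumor was left out of these 2 values. PS473@NKMOF-101-[Mn] tumor 2, highest of the series for both Cxcl11 (1.29 FPKM, 43.5 fragments) and Ccl5 (36.0 FPKM), thus remained in the first of them. Its weight there was not tested.

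**Figure D3:**
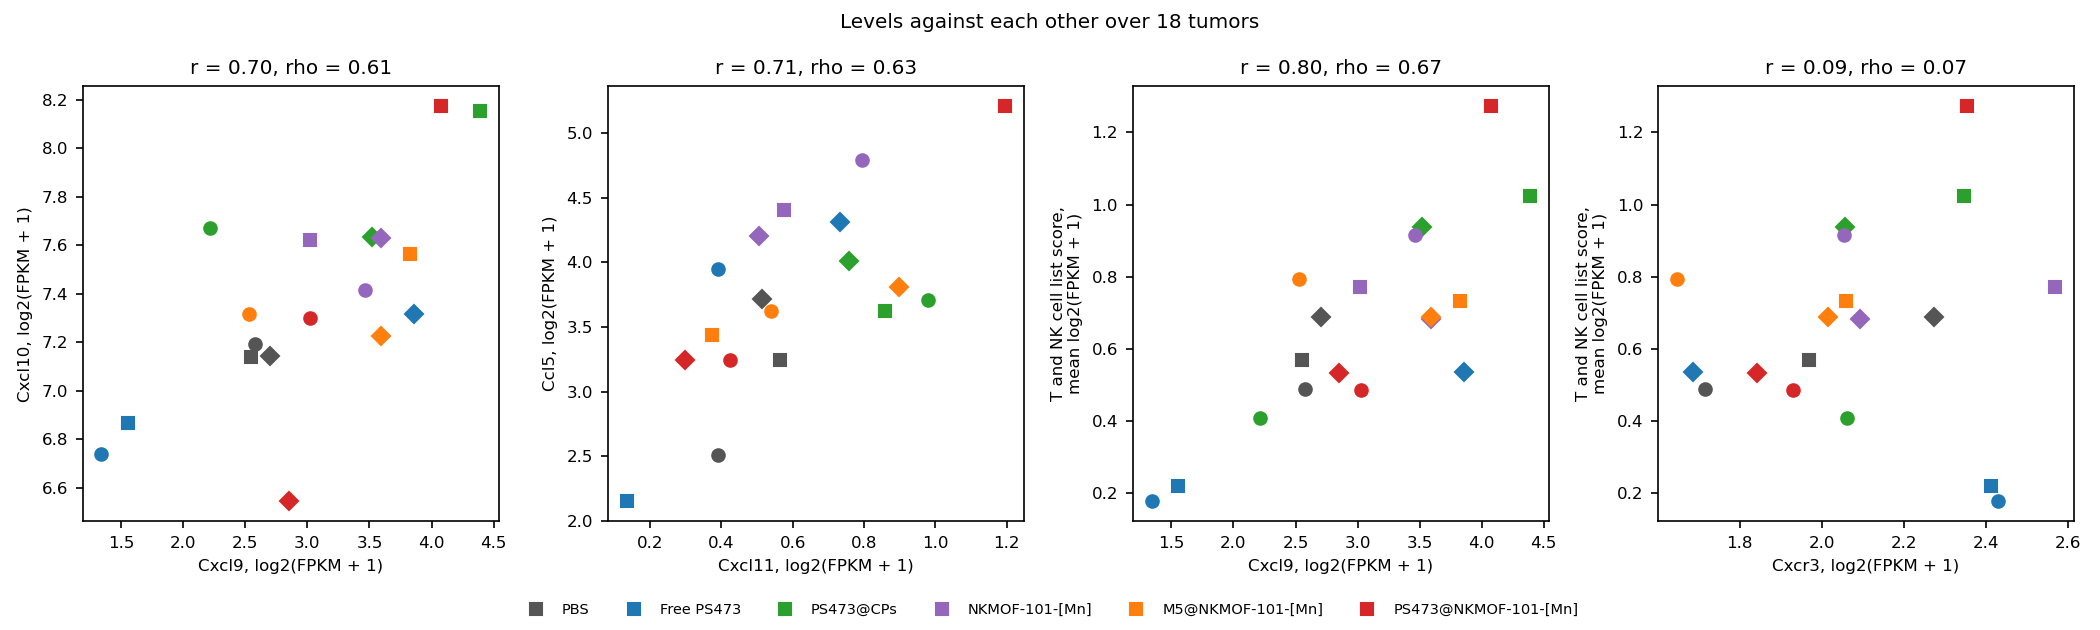
Levels of pairs of genes, or of a gene and the mean level of the T and NK cell list, in log2(FPKM + 1); each point is 1 of 18 tumors, colored by group. Cxcl9 rises with Cxcl10 and with the T and NK cell list, Cxcl11 rises with Ccl5, and Cxcr3 shows no such trend, with Free PS473 tumors 1 and 2 at a high Cxcr3 level and the lowest list scores.

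The same was done against the mean log2 level of 6 lists (30 relations, adjusted together). Cxcl9 followed the list of 21 T and NK cell genes (r = 0.80, rho = 0.67, permutation p = 0.00012, adjusted p = 0.0024), the interferon targets (r = 0.76, adjusted permutation p = 0.0024) and 12 macrophage genes (r = 0.75, adjusted permutation p = 0.0024). Cxcl10 followed the T and NK cell list (r = 0.76) and less closely the macrophage list (r = 0.47, adjusted permutation p = 0.087). Ccl5 gave r = 0.66 with macrophage genes and 0.64 with T and NK cell genes. Cxcr3 gave r = 0.09 with the T and NK cell list (rho 0.07, permutation p = 0.710, adjusted p = 0.761). Without the 2 tumors farthest from the median, r was 0.65 for Cxcl9 with T and NK cell genes and 0.12 for Cxcr3 with them. For Ccl5 it was 0.63 with macrophage genes (adjusted permutation p = 0.0407) and 0.33 with T and NK cell genes (adjusted permutation p = 0.378). Of these relations 11 had an adjusted p under 0.05, 6 without the 2 farthest tumors and 0 in deviations from group means, where the exact permutation gave r = 0.71 for Cxcl9 with T and NK cell genes and r = 0.86 with macrophage genes, at adjusted p values of 0.0785 and 0.0502. Melanoma genes gave r between -0.16 and -0.01 with the members. The skin epithelium list, whose mean lay between 0.30 and 6.17 over the tumors, gave r = 0.50 with Cxcl9 and 0.51 with Cxcl11 (adjusted permutation p = 0.0772 and 0.0715), and its part in these levels was not tested. This list mean was 0.37, 5.62 and 4.78 in the PBS tumors and 0.34, 3.71 and 0.95 in those with the loaded framework, so it varied within groups.

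**Figure D4:**
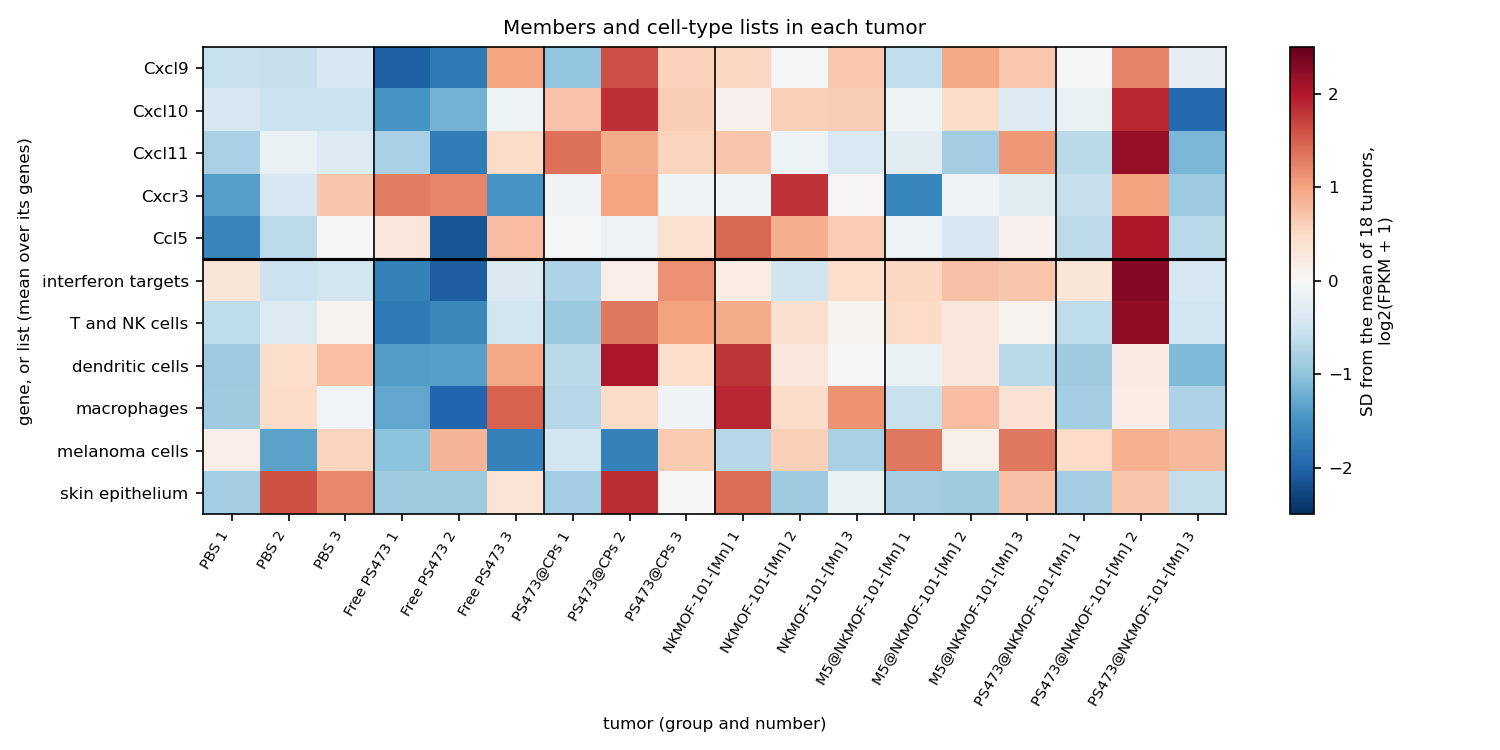
Each member and each list mean in the 18 tumors, in SD from the mean of all tumors on the log2(FPKM + 1) scale (red above, blue below). PS473@NKMOF-101-[Mn] tumor 2 is high in all members and in the interferon and T and NK cell lists, Free PS473 tumors 1 and 2 are low in the 3 ligands and in the interferon and immune cell lists but high in Cxcr3, and skin epithelium is high in tumors of several groups.

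Genes with the most similar pattern over the 18 tumors, by Pearson's r of log2 levels, were taken for each tested member, as a description. For Cxcl9 they were Ccl3 (r = 0.93), a chemokine of myeloid and T cells, Serpina3g (r = 0.93), a protease inhibitor, and Irf8 (r = 0.92), a transcription factor of myeloid cells. For Cxcl10 they were Cfb (r = 0.89), complement factor B, and H2-Q4 (r = 0.84) and H2-Q5 (r = 0.81), nonclassical class I genes whose near-identical copies make their own counts uncertain. For Ccl5 they were Nrp2 (r = 0.88), a coreceptor of semaphorins, Unc93b1 (r = 0.85), a trafficking protein of Toll-like receptors, and Ms4a6c (r = 0.85), a gene of monocytes and macrophages. For Cxcr3 the highest values were lower: Dnajb12 (r = 0.74), Lrrc8d (r = 0.74) and Gpatch1 (r = 0.74), none of them on the T and NK cell list. Among all tested genes, Cxcl10 ranked 291st for Cxcl9 and Ccl5 ranked 762nd, whereas Cxcr3 ranked 6693rd.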

How the data were processed

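RNA of 18 whole B16F10 tumors was poly(A)-selected and sequenced. The authors deposited FPKM values for 41079 genes with 1 length per gene. The submitters' processing notes name GRCm39, and the aligner, counting tool and annotation are not given in the sources used here. Coordinates are of GRCm38, from the reference, and were not used to read the table. Every tumor column was mapped (0 left out), no 2 tumors held identical values, and each tumor counts as 1 replicate; the labels do not say more of separate animals, so p values measure the spread between these tumors. Steps between low values gave the depth: 49.3% to 54.0% of them were whole fragments within 0.01, so no count model was the main test.

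Levels were taken as log2(FPKM + 1). Genes averaging 1 FPKM or more (12357) entered a limma fit (version 3.58.1, R 4.3.3, 6 group means, trend), with Benjamini-Hochberg adjustment over all of them; fold changes are on this scale and understate low genes. Cxcl11 came from the same fit without a filter (31286 genes). Pearson and Spearman correlations used 100000 permutations, two-sided, and 46656 exact rearrangements within groups (Python 3.11.15, numpy 2.4.6, scipy 1.17.1, pandas 2.3.3). The fit was also run on simulated data of PS473@NKMOF-101-[Mn] against PBS with 200 of 12357 genes changed. It found 84.5% of them at a log2 change of 1 (13 false calls) and 94.5% at 1.5 (16 false calls). At 2 it found 93.5% (8 false calls). These shares are over the 200 changed genes together. How often such a change in a member would be found was not tested. In the measured tumors the SE of this comparison was 0.62 for Cxcl9, 0.54 for Ccl5, 0.29 for Cxcl10 and 0.22 for Cxcr3. The members and gene lists were chosen with earlier results of these data known. Named genes are the members, listed genes where a list is described, and the 3 tested genes with the highest r to each tested member. Alternatives were another pseudocount (0.1), other filters, 2 other scalings, fewer groups, no trend, a skin covariate, a replicate block and leaving out each tumor; voom on recovered fragments was added after seeing the data. Values of some listed genes are not reported here.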

Additional observations from a re-analysis of the deposited data

How the results depend on the processing

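No member passed an adjusted p of 0.05 in any of the 10 comparisons under any alternative; the lowest adjusted p over the 776 recomputed values was 0.542, and 722 of these kept their direction. Counts of genes called, 0 in the reported fits, became 1 to 4 only in part of the settings: without a filter 2 for the loaded framework against PBS and against Free PS473, 1 against PS473@CPs, 3 against the M5 framework, 2 for Free PS473 and 3 for the M5 framework against PBS, 2 for the framework groups and 4 by the F test. PS473@CPs against PBS gave 1 with only the groups compared. Voom without a filter gave 1 for the loaded framework against Free PS473, PS473@CPs and the empty framework and 2 against the M5 framework. Leaving out single tumors gave 0 to 1 for PS473@CPs against PBS and for the framework groups, the 1 in both without PS473@CPs tumor 3. The cause was not tested.

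Directions turned for small differences. For Cxcl9 in the loaded framework, the skin covariate gave 0.22 against PS473@CPs, 0.14 against the empty framework and -0.040 against the M5 framework, quantile normalization 0.041 against the empty framework, upper-quartile scaling 0.025 against the empty framework and -0.043 against the M5 framework, and voom -0.020 against the latter. Cxcl9 in Free PS473 against PBS became 0.18 with the skin covariate. Quantile normalization gave 0.0057 for Cxcl10 in the loaded framework against the M5 framework and 0.0065 for Cxcr3 in the M5 framework against PBS. For Cxcl11, voom gave -0.19 and -0.066 against the empty framework and the M5 framework.

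Leaving out each tumor in turn gave these ranges where the direction turned. In the loaded framework against PBS, Cxcl10 ran from -0.24 to 0.58, Cxcl11 from -0.13 to 0.32 and Cxcr3 from -0.10 to 0.20. Against Free PS473, Cxcl10 ran from -0.053 to 0.76, Cxcl11 from -0.058 to 0.39 and Ccl5 from -0.23 to 0.85. Against PS473@CPs, Cxcl9 ran from -0.64 to 0.45 and Ccl5 from -0.54 to 0.45. Against the empty framework, Cxcl9 ran from -0.42 to 0.19, Cxcl10 from -0.63 to 0.18 and Cxcl11 from -0.26 to 0.18. Against the M5 framework, Cxcl9 ran from -0.39 to 0.26, Cxcl10 from -0.45 to 0.37, Cxcl11 from -0.24 to 0.21, Cxcr3 from -0.021 to 0.24 and Ccl5 from -0.38 to 0.60. In Free PS473 against PBS, Cxcl9 ran from -1.16 to 0.10, Cxcl11 from -0.23 to 0.071 and Ccl5 from -0.11 to 0.97. In the M5 framework against PBS, Cxcr3 ran from -0.21 to 0.065 and Cxcl11 from -0.035 to 0.23. Between the framework groups and the others, Cxcl10 ran from -0.035 to 0.24, Cxcl11 from -0.062 to 0.088 and Cxcr3 from -0.12 to 0.0049. Without a turn in direction, Cxcl10 in the loaded framework ran from -0.90 to -0.082 against PS473@CPs and Ccl5 from -1.22 to -0.24 against the empty framework, and Cxcl10 in PS473@CPs against PBS stayed between 0.49 and 0.75 and Ccl5 in the empty framework against PBS between 0.98 and 1.59.

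Of the 6 member pairs with an adjusted p under 0.05, 0 remained without the 2 farthest tumors and 1 in deviations from group means; without those tumors r turned to 0.33 for Cxcl9, -0.013 for Cxcl10 and -0.077 for Cxcl11, each with Cxcr3. The tumors' numbers showed no consistent pairing: deviations of same-numbered tumors correlated between -0.73 and 0.72, and 4 of 18 tumors correlated best with their own number. The median r was 0.31 among tumors numbered 1, -0.16 among those numbered 2 and -0.02 among those numbered 3. Such a check cannot exclude that a number marks a shared batch. A replicate block called 0 genes in each comparison and changed no other call. Depth limits Cxcl11 most, with as few as 4 fragments in a tumor, and 3 tumors a group limit every interval.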
